A study of Homo sapiens with 6 samples.

Results

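Of the 8 genes described here, 7 are keratins (KRT7, KRT8, KRT10, KRT18, KRT19, KRT80 and KRT81) and 1 is CSNK1A1, the gene of casein kinase 1 alpha. They were chosen by symbol as keratins of epithelial cells and as the kinase that FAM83H brings to keratin filaments. They are 8 of the 40173 genes in the deposited count table. Earlier results of these data were known when the genes were chosen. The shares of them that passed a test or did not overlap are therefore a description only. A549 cells, an established human lung adenocarcinoma line, were transfected either with a negative control siRNA (control, 3 libraries) or with an siRNA against FAM83H-AS1, a long noncoding RNA encoded head-to-head with FAM83H (silenced, 3 libraries), and were harvested the day after. Apart from the siRNA, both groups were the same line under the same conditions as far as the labels tell, and which of the siRNAs listed against FAM83H-AS1 was used is not given for these libraries. Nothing in the labels says that the replicates were separate cultures, so that the p-values measure only the spread between these libraries, which may be technical.

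Keratins are the intermediate filament proteins of epithelial cells. A filament is built from pairs of an acidic type I keratin and a basic type II keratin, so that neither type forms filaments alone, and a partner left over is normally degraded. KRT8 (type II) with KRT18 (type I) is the pair of simple epithelia, to which glandular and lung epithelial cells add KRT7 (type II) and KRT19 (type I). FAM83H binds casein kinase 1 alpha and draws it to the filaments, where the kinase can loosen the network by phosphorylation.

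The largest changes ran in opposite directions within the family. After silencing, KRT7 and KRT18 mRNAs were lower, at 67.5% and 74.2% of the control level, and KRT80 mRNA was higher, at 158%. KRT8, KRT10 and CSNK1A1 did not pass the test, and KRT19 and KRT81 were close to the detection limit. Thus 3 of the 7 genes that could be tested passed at 0.05 after adjustment in edgeR, of which 1 was higher and 2 were lower, compared with 17.0% of all 15250 tested genes, of which 8.75% were higher and 8.27% were lower. None of the 7 passed a fold change of 2 as well, in edgeR or in DESeq2, which 2.14% of the tested genes did. The median log2 fold change was -0.20 over the 7 genes and -0.00067 over all tested genes.

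Total counts ranged from 9738291 to 17742643 per library, with control replicate 3 the deepest, and levels are given in CPM, counts scaled to library size after TMM normalization. FAM83H-AS1, the target, was at 15.9 ± 1.39 CPM in control and 4.87 ± 0.617 CPM in silenced cells (± SD, n = 3), with all silenced below all control libraries. Among markers of epithelial cells, 8 of 11 could be tested, while ESRP1 had 0 counts in every library and CDH1, the E-cadherin gene, was at 0.69 to 1.66 CPM. Of the markers of alveolar type II cells, only ABCA3 (alveolar lipid transporter) could be tested, and SFTPC had between 2 and 8 counts. The defining markers of leukocytes (PTPRC) and endothelium (PECAM1) had between 0 and 2 counts, and PDGFRA, of fibroblasts, had 0 counts. In RNA of whole cultures, fewer cells that express a gene and less RNA per cell cannot be told apart.

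**Figure D1:**
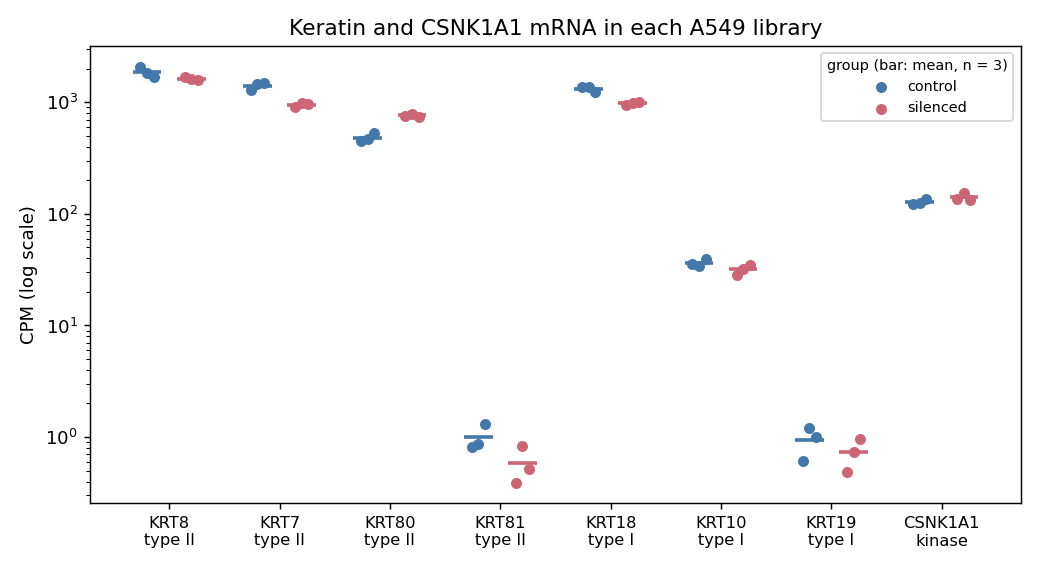
Level of each keratin and of CSNK1A1 in CPM on a log scale, with 1 point per library and a bar for the mean of 3 libraries. KRT8, KRT7 and KRT18 lie between 909 and 2081 CPM, KRT80 is the gene that is higher in every silenced library, and KRT19 and KRT81 lie near 1 CPM, from 0.391 to 1.30.

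KRT8, the type II partner in the simple epithelial pair, had the highest CPM of the keratins in every library, on a scale without correction for length. Its level was 2081, 1815 and 1693 CPM in control replicates 1, 2 and 3 and 1667, 1603 and 1594 CPM in silenced replicates 1, 2 and 3. All silenced libraries were below all control libraries, but control replicate 3 was only slightly above silenced replicate 1. The means were 1863 ± 199 and 1621 ± 39.9 CPM (± SD, n = 3), so that KRT8 stayed at 87.0% of control. Its log2 fold change of -0.20 (standard error, SE, 0.0828, 95% interval -0.38 to -0.0185) did not pass after adjustment over all genes (adjusted p = 0.121 in edgeR). Without control replicate 1, in which KRT8 was highest, the log2 fold change was -0.11 (adjusted p = 0.337 in edgeR). Without control replicate 3 the KRT8 value was -0.27 (adjusted p = 0.0521 in edgeR). With any other single library left out it lay between these values and did not pass.

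KRT18, its type I partner, was lower in every silenced library. It was at 1363, 1356 and 1229 CPM in the control libraries and at 951, 978 and 1001 CPM in the silenced libraries. The gap between the lowest control and the highest silenced library was wider than the range within either group. The means were 1316 ± 75.3 and 977 ± 25.2 CPM (± SD, n = 3), giving a log2 fold change of -0.43 (SE 0.0696, adjusted p = 0.00266 in edgeR).

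KRT7, a type II keratin of glandular and ductal epithelia, fell most among the tested keratins by log2 fold change. The control libraries were at 1277, 1461 and 1501 CPM and the silenced libraries at 909, 978 and 974 CPM, so that the groups were well apart. The means were 1413 ± 119 and 954 ± 39.1 CPM (± SD, n = 3), and the log2 fold change was -0.57 (SE 0.0782, adjusted p = 0.00116 in edgeR).

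KRT80, a type II keratin found near desmosomes and at the cell margin, moved the other way. It rose from 447, 472 and 528 CPM in the control libraries to 750, 792 and 742 CPM in the silenced libraries, and no silenced library came near the control range. The means were 483 ± 41.5 and 761 ± 27.2 CPM (± SD, n = 3), giving a log2 fold change of 0.66 (SE 0.0771, adjusted p = 0.000462 in edgeR). By log2 fold change KRT80 stood at percentile 96.2 of all tested genes, KRT18 at 9.25 and KRT7 at 5.46. The calls for these 3 genes were the same with any 1 library left out, with log2 fold changes from 0.60 to 0.73 for KRT80, from -0.48 to -0.41 for KRT18 and from -0.64 to -0.52 for KRT7.

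KRT10, the type I keratin of the upper epidermis, was expressed at a low level in these cells. Its CPM was 35.4, 34.5 and 39.3 in the control and 28.5, 32.4 and 34.9 in the silenced libraries, and the groups overlapped. The log2 fold change of -0.19 had a 95% interval from -0.41 to 0.0274 (adjusted p = 0.213 in edgeR). In the annotation KRT10 shares 3490 bases with TMEM99 on the other strand, and since the strand setting of the counting is not given, reads of the pair may be mixed.

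KRT19 and KRT81 were listed with few reads. KRT19, a type I keratin of simple epithelia, had 6, 14 and 17 counts in the control and 5, 8 and 13 in the silenced libraries, and the interval of its log2 fold change reached from -1.23 to 0.51. KRT81, a type II keratin of hair, had 8, 10 and 22 counts in the control and 4, 9 and 7 in the silenced libraries, below the filter on low counts. Both genes overlapped between the groups, and the interval of KRT19 held both 0 and the change seen in KRT7. The transcripts of KRT81 and of KRT86, its neighbour on the opposite strand, are 94.6% identical over 1420 aligned bases, so that reads may be shared or lost between them. KRT86 itself had 9, 16 and 30 counts in the control and 17, 16 and 13 in the silenced libraries.

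CSNK1A1 mRNA was at 122, 126 and 135 CPM in the control libraries and at 136, 154 and 134 CPM in the silenced libraries. Silenced replicate 3 lay within the control range, so that the groups overlapped. The means were 128 ± 6.64 and 141 ± 10.7 CPM (± SD, n = 3), with a log2 fold change of 0.15 (95% interval -0.0292 to 0.32, adjusted p = 0.236 in edgeR). Of the 7 tested genes, 4 (KRT7, KRT8, KRT18 and KRT80) had groups that did not overlap, compared with 36.6% of all tested genes.

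To compare genes with each other, CPM was divided by the length of the longest consensus coding transcript in kilobases. On this scale KRT8 was at 876 ± 93.5, KRT18 at 843 ± 48.2 and KRT7 at 805 ± 68.0 CPM per kb in control cells (± SD, n = 3), levels that did not differ beyond their spread. KRT80 followed at 124 ± 10.7 CPM per kb, CSNK1A1 at 21.1 ± 1.09 and KRT10 at 17.1 ± 1.22, while KRT19 (0.679 ± 0.216) and KRT81 (0.516 ± 0.137) could not be told apart. In silenced cells the first 3 genes were spread out, with KRT8 at 763 ± 18.8, KRT18 at 625 ± 16.1 and KRT7 at 544 ± 22.3 CPM per kb (± SD, n = 3), and KRT80 had risen to 195 ± 7.0 CPM per kb. The values depend on the transcript chosen, most of all for CSNK1A1 and KRT80, whose transcripts of 6067 and 3894 bases are mostly 3′-UTR.

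A ratio of 2 keratins inside a library does not depend on how libraries are scaled. The log2 ratio of KRT8 to KRT18 counts was 0.61, 0.42 and 0.46 in control and 0.81, 0.71 and 0.67 in silenced cells. It was therefore higher in every silenced library, by 0.23 on average, as KRT18 fell while KRT8 did not pass the test (two-sided exact permutation test, p = 0.1, which is as low as 3 against 3 can reach). The ratio of KRT7 to KRT18 overlapped between the groups (difference -0.13, exact permutation test, p = 0.4). The ratio of KRT80 to KRT7, both type II, differed most among the members: its log2 value was -1.51, -1.63 and -1.51 in the control and -0.28, -0.30 and -0.39 in the silenced libraries, a difference of 1.22 (exact permutation test, p = 0.1). Of the 9 ratios examined, 8 had groups that did not overlap and none could pass a threshold of 0.05 (adjusted p = 0.113 at the lowest, exact permutation test). The ratios of 2 keratins were built from KRT7, KRT8, KRT17, KRT18 and KRT80, whose own CPM did not overlap between the groups. The ratios are therefore not separate results, and no share over other pairs of genes was computed.

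**Figure D2:**
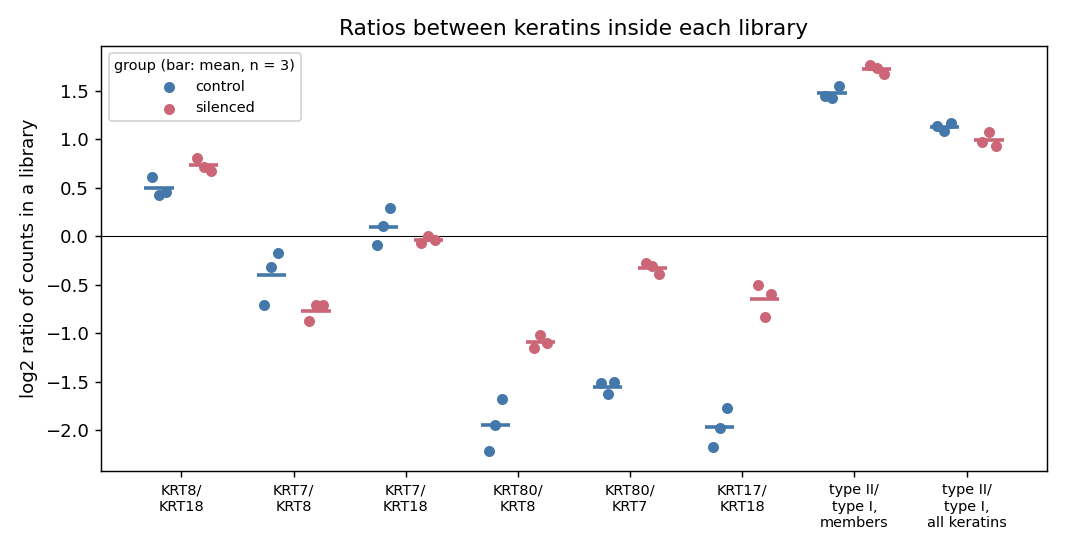
Log2 ratio of the counts of 2 keratins, or of summed type II to type I keratins, in each library, with a bar for the mean of 3 libraries. The ratios of KRT80 to KRT8 and to KRT7 and of KRT17 to KRT18 are higher in every silenced library, and the ratio of type II to type I keratins moves up among the members (1.48 to 1.73) but down over all keratins (1.13 to 0.99).

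The direction of the type II to type I ratio depended on which keratins were summed. Over the chosen keratins alone the log2 ratio was higher in every silenced library, 1.73 ± 0.0459 compared with 1.48 ± 0.0669 (± SD, n = 3). Over all 54 type I and type II keratin genes of the table it was lower in every silenced library, 0.99 ± 0.0755 compared with 1.13 ± 0.0422 (± SD, n = 3), and for both sums the exact permutation test gave p = 0.1. The difference between the sums lies in KRT17, a type I keratin induced in stressed or wounded epithelia and abundant in many carcinomas, which is not among the chosen genes. KRT17 was at 303, 345 and 361 CPM in the control and 673, 548 and 660 CPM in the silenced libraries, a log2 fold change of 0.90 (SE 0.0954, adjusted p = 0.000252 in edgeR).

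Of the 54 keratin genes, 13 could be tested and 18 had 0 counts in every library. Of the 8 tested type I keratins, 3 rose (KRT15, KRT16 and KRT17) and 1 fell (KRT18), against 8.75% higher and 8.27% lower among all tested genes. Of the 5 tested type II keratins, 1 rose (KRT80) and 1 fell (KRT7). With 1 library left out, between 2 and 4 type I keratins rose: KRT15 no longer passed without silenced replicate 1, and KRT9, a keratin of palm and sole skin with 4 to 21 counts, passed without control replicate 2 (adjusted p = 0.0325 in edgeR, 0.0963 with all libraries). KRT16, which with KRT17 marks activated keratinocytes, rose from 6.27 ± 0.471 to 10.1 ± 0.530 CPM (± SD, n = 3), giving a log2 fold change of 0.69 (adjusted p = 0.00967 in edgeR). KRT15, a keratin of basal cells, rose from 17.5 ± 2.64 to 25.1 ± 0.962 CPM (± SD, n = 3), giving a log2 fold change of 0.52 (adjusted p = 0.0135 in edgeR), but did not pass without silenced replicate 1 (adjusted p = 0.0583 in edgeR). KRT16 and KRT17 transcripts are 82.1% identical over 1232 aligned bases, so that some reads of the far more abundant KRT17 could be counted for KRT16. The usual type II partners of KRT15, KRT16 and KRT17 in stratified epithelia were not detectable at this depth: KRT5 had 0 to 5 counts per library and KRT6A had 0 counts.

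**Figure D3:**
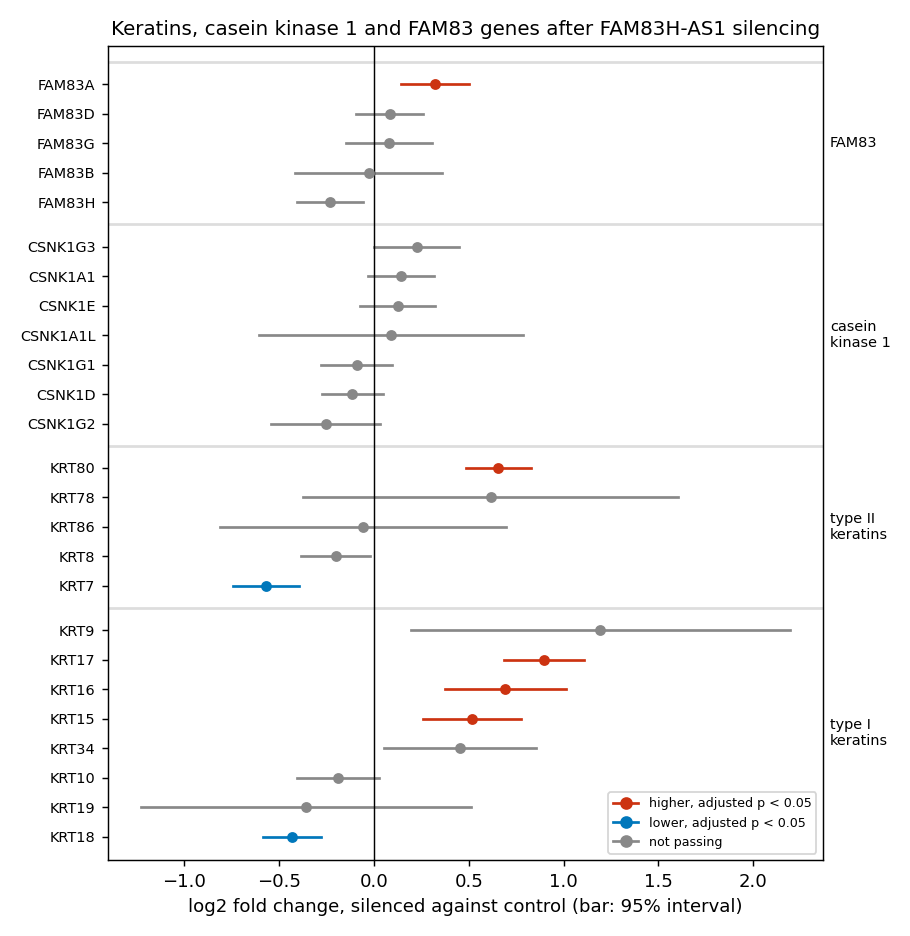
Log2 fold change of silenced against control cells with its 95% interval for every tested keratin, casein kinase 1 and FAM83 gene, coloured by an adjusted p under 0.05 by edgeR. The keratins spread to both sides of 0, from -0.57 for KRT7 to 0.90 for KRT17 among those that passed. No casein kinase 1 gene passed, of 7 tested, compared with 17.0% of all tested genes.

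Keratin genes together made up 0.514% to 0.556% of all counts in the control libraries and 0.503% to 0.510% in the silenced libraries. Within this pool the share of KRT7 was lower after silencing (25.8% ± 2.46 to 19.0% ± 0.819, ± SD, n = 3), as was that of KRT18 (22.8% to 24.6% and 18.9% to 19.8%). The share of KRT80 was higher (8.81% ± 0.893 to 15.2% ± 0.651), and so was that of KRT17 (6.14% ± 0.629 to 12.5% ± 1.30). KRT8 kept about the same place, with 34.0% ± 3.23 and 32.3% ± 0.817. For KRT7, KRT18, KRT80 and KRT17 the groups did not overlap, and for KRT8 they did.

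**Figure D4:**
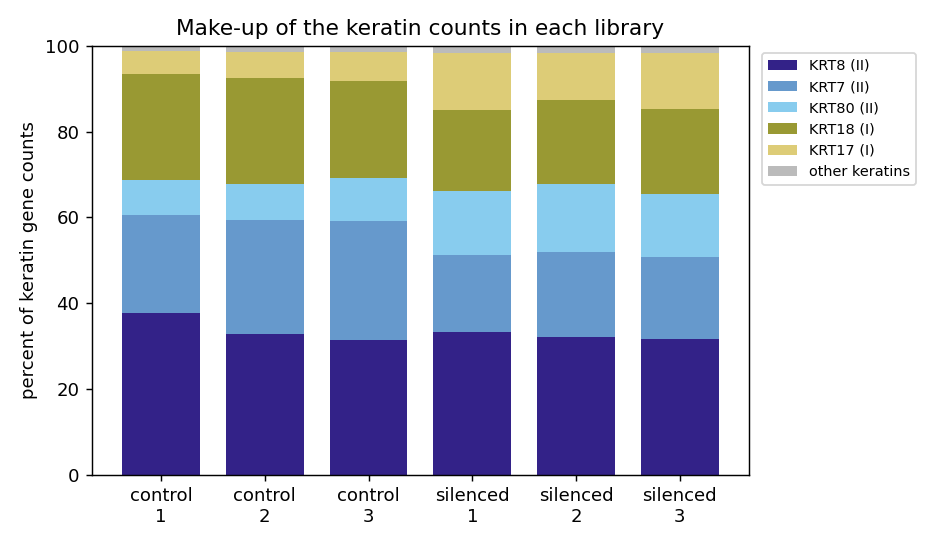
Make-up of the keratin counts in each library as stacked percentages from 0 to 100, with type I or type II in brackets. KRT80 and KRT17 take a larger share in each silenced library, and KRT7 and KRT18 a smaller one.

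KRT7, KRT8, KRT18, KRT80 and KRT81 lie in the type II keratin cluster of chromosome 12, where KRT18 is the single type I gene. In GENCODE 29 on GRCh38 (the counts were made on GRCh37, so that genes were matched by symbol), KRT80 is at chr12:52168996-52192000 on the minus strand, KRT7 at chr12:52232520-52252186 on the plus strand, KRT8 at chr12:52897187-52949954 on the minus strand and KRT18 at chr12:52948871-52952901 on the plus strand. KRT8 and KRT18 are neighbours with 1084 annotated bases in common on opposite strands. All 23005 bases of KRT80 lie within LINC00592 on the other strand, and KRT7 shares 2401 bases with KRT7-AS on the other strand. Without a stated strand setting such reads cannot be told apart. KRT7 also shares 2887 bases with KRT86 on its own strand, where a strand setting would not separate the reads. KRT80 and KRT7, near each other in this cluster, changed in opposite directions. KRT10 and KRT19 lie in the type I cluster of chromosome 17, with KRT15, KRT16 and KRT17, and CSNK1A1 lies on chromosome 5.

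KRT8 and KRT18 have many processed pseudogenes, which could take reads from them or lend reads to them. The table lists 48 KRT8 pseudogenes, whose summed counts came to 15.1% to 19.4% of those of KRT8, and 64 KRT18 pseudogenes, whose sum came to 7.01% to 9.63% of KRT18. The 16 KRT8 pseudogenes with at least 10 counts in every library are 83.9% to 97.1% identical to the parent transcript, and the 12 such KRT18 pseudogenes 91.7% to 95.9%. KRT8P3, the nearest copy, had 1219, 1171 and 1507 counts in the control and 998, 1190 and 1436 in the silenced libraries, with a log2 fold change of -0.0017 (adjusted p = 0.994 in edgeR). Of 21 tested KRT8 and 19 tested KRT18 pseudogenes, none was lower with an adjusted p under 0.05 in edgeR, and KRT18P15 alone was higher (log2 fold change 0.75, adjusted p = 0.0308). The shares over all tested genes were 8.27% lower and 8.75% higher. Many of these pseudogenes had few counts, with an SE of up to 0.377 (KRT8P39), so that a fall like that of KRT18 could be missed in them. At an unadjusted p under 0.05, 2 KRT18 pseudogenes were lower and no KRT8 pseudogene was, and DESeq2 called 1 KRT18 pseudogene lower and 1 pseudogene of each parent higher. With the pseudogene counts added to the parents, the log2 fold change was -0.40 for KRT18 (adjusted p = 0.00397 in edgeR) and -0.17 for KRT8 (adjusted p = 0.183 in edgeR).

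The ends of the keratin mRNAs differ in a short sequence that was picked in an earlier analysis of these same libraries after their values had been seen, CCAATAA. For that reason its presence is only described and supports nothing about the direction of a gene. The sense strand of the 3′-UTRs of consensus coding transcripts in GENCODE 29 was searched, and KRT7, KRT18 and KRT19 held the word among the 8 chosen genes, each near the 3′ end. In the lines for these genes and for LMNB2, a lamin gene described later, the capitals mark CCAATAA. In the other lines the capitals mark the last AATAAA, the usual polyadenylation signal, which overlaps CCAATAA wherever an A follows it.
KRT7: agaatagcttCCAATAAagcagcctca
KRT18: gagcaggaggCCAATAAaaagttcaga
KRT19: tcctgacctgCCAATAAaaatttatgg
LMNB2: gtacaacactCCAATAAacattttgat
KRT8: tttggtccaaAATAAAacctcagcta
KRT10: aatgaatttcAATAAActttcttact
KRT80: tgtgagccaaAATAAAtgtcttttct
KRT17: gcctgatgacAATAAAgcttgttgac

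The word starts at base 124 of the 161 bases of the KRT7 3′-UTR, at base 38 of 59 in KRT18 and at base 101 of 126 in KRT19. In each of these it is followed by an A, so that its last bases are part of an AATAAA. Among the 13 tested keratins, 5 held the word, of which KRT7 and KRT18 fell and KRT19, KRT34 and KRT86 did not pass the test. Of the 8 keratins without it, 4 rose (KRT15, KRT16, KRT17 and KRT80), 4 did not pass and none fell, in edgeR or in DESeq2, with KRT8 lower at an unadjusted p of 0.0337 in edgeR. The shares over all tested genes, with or without the word, were 8.75% higher and 8.27% lower in edgeR. As background, 11.6% of 11457 tested genes with an annotated 3′-UTR held the word, and 5.97% of the 972 genes with a 3′-UTR of up to 200 bases did.

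All 7 casein kinase 1 genes could be tested, and none had an adjusted p under 0.05 in edgeR or in DESeq2. In edgeR 17.0% of all tested genes did, so that 0 among so few genes sets them little apart. At an unadjusted p under 0.05 there was 1, CSNK1G3 (adjusted p = 0.153 in edgeR). Of the FAM83 family, whose proteins bind casein kinase 1, 5 of 8 could be tested. FAM83H was at 248, 214 and 245 CPM in the control and 211, 190 and 202 CPM in the silenced libraries. Every silenced library was below every control library, and 36.6% of all tested genes had groups without overlap. The log2 fold change of FAM83H was -0.23 (95% interval -0.40 to -0.0568, adjusted p = 0.0680 in edgeR). It passed without control replicate 2 (log2 fold change -0.30, adjusted p = 0.0425 in edgeR), but with no other single library left out. By qRT-PCR and western blot, the study reported no significant change of FAM83H mRNA or protein when FAM83H-AS1 was reduced. With all libraries FAM83A alone of the 5 passed, a share of calls near the 17.0% of all tested genes. FAM83A had a log2 fold change of 0.32 (adjusted p = 0.0220 in edgeR). It did not pass without control replicate 2 or 3 or silenced replicate 1 or 3 (highest adjusted p = 0.0864).

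Linker proteins tie keratin filaments to desmosomes, hemidesmosomes and the rest of the cytoskeleton. Of the 16 tested genes for them, of 23 listed, 4 mRNAs rose, 3 fell and 9 did not pass, against 8.75% higher and 8.27% lower among all tested genes, with a median log2 fold change of 0.06. DST, the plakin that links keratins to hemidesmosomes, rose from 258 ± 9.16 to 386 ± 10.2 CPM (± SD, n = 3), giving a log2 fold change of 0.58 (adjusted p = 0.000373 in edgeR). PPL (periplakin) rose by 0.35 on the log2 scale (adjusted p = 0.00867 in edgeR), and MACF1 and ITGA6 by 0.28 each. The desmosomal plakophilin PKP3 fell by 0.40 (adjusted p = 0.00989 in edgeR), EVPL (envoplakin), a partner of PPL, by 0.36 (adjusted p = 0.0138 in edgeR), and PKP2 by 0.49.

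DSP (desmoplakin) and JUP (plakoglobin), core genes of the desmosome, had log2 fold changes of -0.0057 and -0.04 and did not pass. PLEC (plectin), the most abundant linker by CPM, was at 0.30 (adjusted p = 0.0601 in edgeR), and passed without control replicate 3 or silenced replicate 2 (adjusted p = 0.0203 and 0.0406 in edgeR). With single libraries left out, 2 to 4 genes of this list rose and 2 or 3 fell. MACF1 did not pass without control replicate 1 or 2 or silenced replicate 1 or 2 (highest adjusted p = 0.0727 in edgeR). PKP2 did not pass without control replicate 1, 2 or 3 or silenced replicate 1 (highest adjusted p = 0.121 in edgeR). ITGA6 passed only without silenced replicate 1 when 1 library was left out (highest adjusted p = 0.107 in edgeR).

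**Figure D5:**
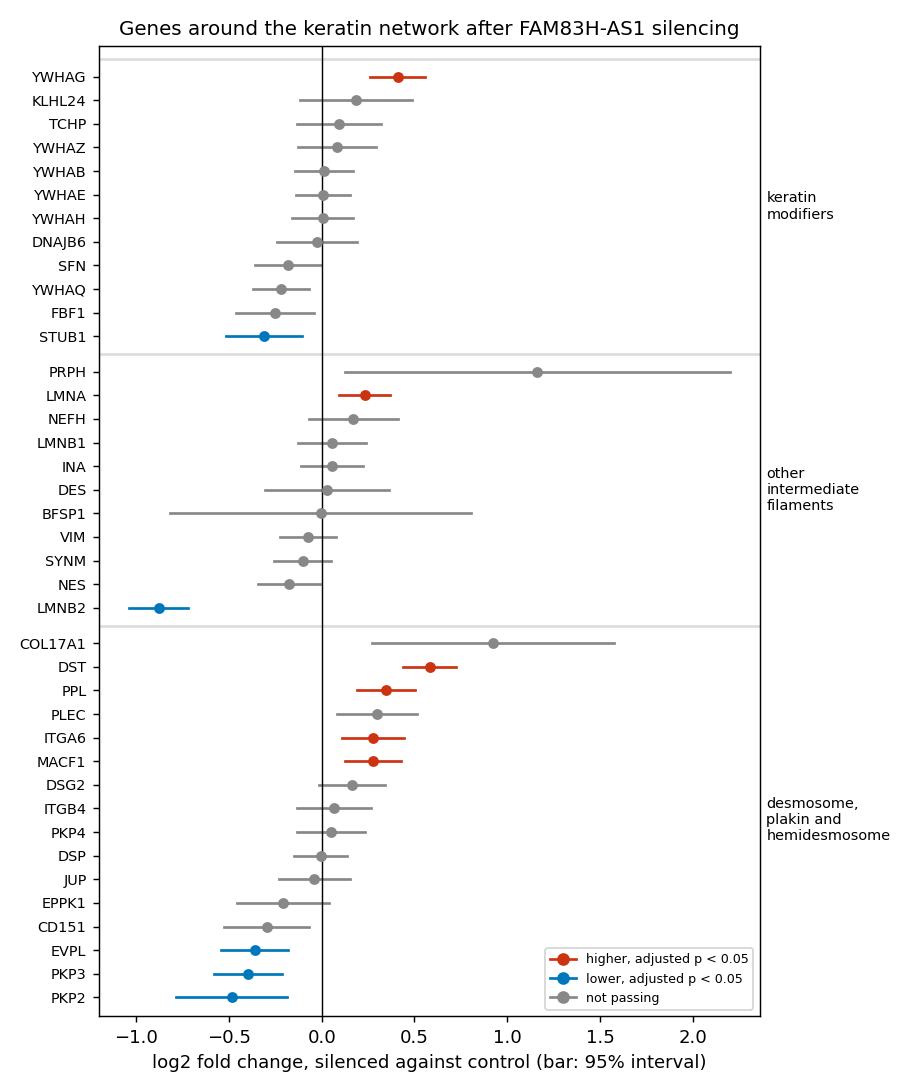
Log2 fold change of silenced against control cells with its 95% interval for tested genes of keratin linkers, other intermediate filaments and keratin modifiers, coloured by an adjusted p under 0.05 by edgeR. LMNB2 is the lowest gene at -0.88, and linkers lie on both sides of 0, from -0.49 for PKP2 to 0.58 for DST among those that passed.

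Among intermediate filament genes other than keratins, 11 of 15 could be tested, of which 1 rose, 1 fell and 9 did not pass, a share of calls near the 17.0% of all tested genes. LMNB2 (lamin B2) fell from 151 ± 6.65 to 82.1 ± 2.21 CPM (± SD, n = 3), giving a log2 fold change of -0.88 (SE 0.0719, adjusted p = 4.80e-05 in edgeR). LMNA (lamins A and C) was higher by 0.23 on the log2 scale (adjusted p = 0.0297 in edgeR), but passed only without control replicate 3 when 1 library was left out (highest adjusted p = 0.0947), and LMNB1 (lamin B1) was at 0.06 (adjusted p = 0.680 in edgeR). VIM (vimentin), the filament protein of mesenchymal cells that A549 cells also express, was at 495 ± 21.9 and 470 ± 19.6 CPM (± SD, n = 3), giving a log2 fold change of -0.07 (95% interval -0.22 to 0.08). Its level was below those of KRT7, KRT8 and KRT18 in counts.

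Among 12 genes whose proteins bind, modify or remove keratins, YWHAG, a 14-3-3 protein of the family that binds phosphorylated KRT18, rose from 518 ± 5.94 to 689 ± 35.8 CPM (± SD, n = 3), giving a log2 fold change of 0.41 (adjusted p = 0.00290 in edgeR). STUB1, a ubiquitin ligase that works with chaperones, was lower by 0.31 on the log2 scale (adjusted p = 0.0434 in edgeR), and passed only without control replicate 3 when 1 library was left out (highest adjusted p = 0.130). The other 10 did not pass, among them TCHP (trichoplein), at a log2 fold change of 0.09, and the 14-3-3 gene SFN (stratifin), at -0.18. Thus 1 of the 12 rose and 1 fell, a share of calls near the 17.0% of all tested genes.

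The summed level of the 11 epithelial markers was 495 to 502 CPM in the control and 403 to 465 CPM in the silenced libraries. Of the 8 tested, ESRP2, an epithelial splicing factor, fell (log2 fold change -0.47, adjusted p = 0.0145 in edgeR), as did ELF3, an epithelial transcription factor (-0.25, adjusted p = 0.0421), the latter passing only without silenced replicate 3 when 1 library was left out (highest adjusted p = 0.149). The summed level of the 8 mesenchymal markers was 594 to 665 CPM in the control and 627 to 661 CPM in the silenced libraries. Of these SNAI2 (a transcription factor) rose by 0.80 on the log2 scale (adjusted p = 0.00485 in edgeR), FN1 (fibronectin) by 0.43 (adjusted p = 0.0174 by edgeR; 0.0554 without silenced replicate 1) and ZEB2 by 0.94 (adjusted p = 0.0376 in edgeR), from 1.72 ± 0.242 to 3.36 ± 0.834 CPM (± SD, n = 3), passing only without silenced replicate 3 when 1 library was left out (highest adjusted p = 0.131). Of the tested markers, 2 of 8 epithelial ones fell and none rose, and 3 of 8 mesenchymal ones rose and none fell. Among all tested genes, 8.75% were higher and 8.27% were lower. The epithelial marker CDH1, with 8 to 19 counts, was higher at an unadjusted p of 0.0293 in edgeR (log2 fold change 0.82, adjusted p = 0.112). By sign alone, 4 of the 8 epithelial and 5 of the 8 mesenchymal log2 fold changes were above 0. With 1 library left out, 1 or 2 epithelial markers fell and 1 to 3 mesenchymal markers rose. ABCA3 fell, with a log2 fold change of -0.44 (adjusted p = 0.00511 in edgeR). Summed markers of fibroblasts were at 26.3 to 29.8 CPM in the control and 29.3 to 38.4 CPM in the silenced libraries, mostly COL1A1, those of endothelium at 4.42 to 6.39 and 3.79 to 4.16 CPM, and those of leukocytes at 1.38 to 2.26 and 1.66 to 2.60 CPM. The 8 markers of stratified epithelium, mostly KRT16 reads, were at 6.50 to 7.86 and 10.5 to 12.0 CPM. The part of these levels in the keratin results was not tested.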

How the data were processed

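Total RNA of A549 cells was made into Ion Proton libraries. According to the study's methods, MapSplice gave the authors the number of mapped reads of each gene, on GRCh37 per the labels; its version, the annotation, the strand setting and the handling of reads with several matches are not given in the sources used here. The deposited values are raw counts of 40173 genes without normalization. Here they were filtered with filterByExpr, normalized by TMM and tested with the quasi-likelihood F test of edgeR 4.0.16 (R 4.3.3), with Benjamini-Hochberg adjustment over 15250 genes. A gene rose or fell with an adjusted p under 0.05. The rule in the study's methods adds a fold change over 2. For its reported mRNA changes the study gave a false discovery rate under 0.01 with that fold change. The SE was obtained from the log2 fold change and the root of its F value, and the 95% intervals, which are not adjusted, from the SE. With 9738291 to 17742643 counts per library, 3 libraries per group limit precision more than depth for the abundant keratins. Ratios inside a library were compared by exact permutation tests, two-sided. Within a group, libraries varied beyond counting noise (chi-square per degree of freedom from 4.18 to 29.2). Transcripts, lengths, 3′-UTRs and locations came from GENCODE 29, and identities from local alignments with Biopython 1.88.

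The members and the lists of genes were chosen with earlier results of these data known. The rule for named genes took all members, FAM83H-AS1, FAM83H, up to 6 genes per list with an adjusted p under 0.05, pseudogenes with at least 10 counts in every library, and others where a count of 5 or fewer needed a name (PKP2). Listed genes that are named and did not pass, such as VIM, LMNB1, DSP, JUP, PLEC, BTRC, GSK3B and CTNNB1, fall outside it and were chosen after their values were seen. Alternatives were DESeq2 1.42.0, RLE factors, library size only, other filters, the replicate number as a block, pseudogene counts added, an adjusted p under 0.01 and each library left out.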

Additional observations from a re-analysis of the deposited data

How the results depend on the processing

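The number of members that passed was 3 in every alternative except the replicate block, and 3 to 3 with any 1 library left out. KRT7, KRT18 and KRT80 kept their direction and their side of the threshold in all 14 alternatives, and KRT10 and CSNK1A1 passed in none. The number of genes called over the whole table was 326, compared with 583 with a minimum of 1 count, 199 with a minimum of 10 in each library, 148 at an adjusted p under 0.01, and 200 to 335 with 1 library left out. The log2 ratio of KRT8 to KRT18 differed by 0.19 to 0.29 with 1 library left out. The type II to type I ratio over all keratins differed by -0.18 to -0.11, and by 0.25, with the sign reversed, over the members only, since the members leave out KRT17. KRT81 had a log2 fold change of -0.81 (adjusted p = 0.345 by edgeR) among genes with at least 1 count.

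With the replicate number as a block, 4 members passed and 380 genes were called, and KRT8 had a log2 fold change of -0.20 (adjusted p = 0.0481 by edgeR). Deviations of libraries with the same number correlated at 0.162, 0.190 and 0.0556 across genes, and every library correlated best with its own number, a hint from the data and not from the design, though silenced replicate 3 did so with control replicate 1 almost as well (0.0550). The study elsewhere numbers the silenced libraries in another order than the deposited counts, so that the numbers pair nothing by design.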

Other observations

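CSNK1A1 is also the priming kinase of the complex that marks beta-catenin for degradation, in which GSK3 kinases, APC and AXIN1 take part and the F-box proteins BTRC and FBXW11 read the mark. Of 7 tested genes of this list, 1 rose and 2 fell, against 8.75% higher and 8.27% lower among all tested genes, with a median log2 fold change of 1.57e-05. FBXW11 fell from 88.5 ± 1.12 to 68.6 ± 3.51 CPM (± SD, n = 3), giving a log2 fold change of -0.37 (adjusted p = 0.00763 in edgeR), while its paralog BTRC was at 0.00 (adjusted p = 1 in edgeR). GSK3A fell by 0.35 on the log2 scale (adjusted p = 0.0106 in edgeR; 0.0565 without silenced replicate 1), and GSK3B was at 0.14 (adjusted p = 0.258 in edgeR). APC was higher by 0.35 (adjusted p = 0.0189 in edgeR), but did not pass without control replicate 2 or 3 or silenced replicate 2 (highest adjusted p = 0.0684). CTNNB1, the beta-catenin gene, was at 0.14 (adjusted p = 0.281 in edgeR).

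Of 9 tested transcription factors of epithelial genes, TFAP2A and ELF3 fell and none rose, in edgeR or in DESeq2 (1 was higher at an unadjusted p under 0.05), with a median log2 fold change of -0.14. Among all tested genes, 8.75% were higher and 8.27% were lower in edgeR. With 1 library left out, 0 to 2 of these factors fell, and none did without control replicate 1 or silenced replicate 1 or 2. TFAP2A, an AP-2 factor, fell from 79.5 ± 9.81 to 61.4 ± 2.69 CPM (± SD, n = 3), giving a log2 fold change of -0.37 (adjusted p = 0.0222 in edgeR), and did not pass without control replicate 1 or silenced replicate 1 or 2 (highest adjusted p = 0.0672). KLF5, SP1 and SP3 did not pass, with log2 fold changes of 0.15, -0.11 and 0.21.

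Over all listed genes, 98 with an annotated 3′-UTR were tested. Of the 15 that held CCAATAA, 7 fell, 1 rose and 7 did not pass, and of the 83 without it, 6 fell, 14 rose and 63 did not pass. The shares over all tested genes, with or without the word, were 8.27% lower and 8.75% higher in edgeR. Besides KRT7, KRT18 and LMNB2, those that held the word and fell were ELF3, EVPL, FBXW11 and PKP2. ZEB2 held it and rose. Because the word was picked on these libraries, and the lists were chosen with earlier results known, the counts are a description only. The share that fell among all tested genes with the word was not computed.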
